A study of Mus musculus with 12 samples.

Results

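Amino acids enter an activated T cell through a small set of membrane carriers, and 10 genes of such carriers were followed in CD4+ T cells re-stimulated under checkpoint blockade. The genes were Slc7a5, Slc3a2, Slc7a6, Slc7a1, Slc1a5, Slc38a1, Slc38a2, Slc1a4, Slc43a1 and Slc7a11. This list of names was chosen with earlier results of these data known, and was matched to rows of the count table through Ensembl identifiers. The listed genes are 10 of the 56691 mouse genes in the table.

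The cells came from the spleens of Tg4 mice, whose T cells carry a transgenic receptor for a myelin basic protein peptide, and which also carried the Nr4a3-Tocky Timer reporter and an Il10-GFP reporter. All mice were given 4 mg/kg of the [4Y] form of the peptide and, 24 h later, 0.5 mg of antibody, 30 min before a second peptide dose of 0.4 mg/kg. The antibody was an isotype control pool, a block of PD-L1 (anti-PD-L1), a block of Lag3 (anti-Lag3), or both blocks together, a group named CB for co-blockade. There were 3 mice in each of the 4 groups, and 12 h after the second dose CD4+ cells positive for both Timer forms, Nr4a3-Blue and Nr4a3-Red, were sorted for RNA-seq. Nr4a3-Timer reports T cell receptor signalling through NFAT, and a cell with both forms has kept that signal on, so all 4 groups held responding cells and none held resting cells. The T cells of such a mouse largely share 1 receptor, which limits them as a model of a mixed repertoire. The mice were of both sexes and usually 6 to 8 weeks old. They were sorted in batches of 1 mouse per group.

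As background, a T cell that has met its antigen grows before it divides, and growth needs leucine, glutamine, arginine and other amino acids from outside. SLC7A5 (LAT1) carries large neutral amino acids such as leucine, and reaches the surface only as a pair with SLC3A2, the CD98 heavy chain, which also pairs with SLC7A6 (y+LAT2). SLC1A5 (ASCT2), SLC38A1 (SNAT1) and SLC38A2 (SNAT2) carry glutamine and small neutral amino acids, and SLC7A1 (CAT1) carries arginine and lysine. SLC1A4 (ASCT1) carries alanine, serine and cysteine, SLC43A1 (LAT3) carries leucine and its neighbours, and SLC7A11 (xCT) takes up cystine in exchange for glutamate. Leucine and arginine are sensed inside the cell on the way to mTORC1, and a shortage of amino acids raises the transcription factor ATF4, which acts on several of these genes.

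Promoter letters are shown for the 3 members in which a motif of that kind was found, since ATF4 with its partners binds the amino acid response element and MYC with MAX binds the E-box. RefSeq promoters (GRCm38.p6, 250 bases before to 50 after the start) were at hand for 7 of the 10 genes, as 9 promoters, and not for Slc7a5, Slc1a5 and Slc38a1. Both strands were searched for TGATGNAAN and for CACGTG, which reads the same on both strands. The first was present in 3.95% and the second in 7.15% of 32851 promoters of this length. The matched letters are in capitals, 5′ to 3′ on the strand of the gene. The Slc7a11 window, chr3:50443641-50443691 on the minus strand, holds a match on each strand, the Slc1a4 window, chr11:20332702-20332726 on the minus strand, holds 1 response element match, and the Slc43a1 window, chr2:84840247-84840276 on the plus strand, holds 1 E-box.
Slc7a11: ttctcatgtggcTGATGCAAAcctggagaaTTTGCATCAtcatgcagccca
Slc1a4: cctcctgcGTTGCATCAtctccagc
Slc43a1: agggtctccctcCACGTGgcagccgtggga
Neither set of letters was found in the windows of Slc7a1, Slc7a6, Slc38a2 and Slc3a2, which says only that they are not in these windows. For the only Slc3a2 window and 1 of the 2 Slc7a6 windows the bases after the start were not found as a run in an annotated transcript, and the Slc3a2 window lies inside the span of the gene, so it may not be the promoter in use. The Slc43a1 window and 1 Slc7a1 window also lie inside the span of their genes, with the bases after the start found in a transcript. These 3 genes with a match were also the 3 members with the fewest reads, described last.

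The libraries held 16449370 to 22151025 reads on genes, with a median of 19176439. The 9 CD4+ T cell markers summed to 4056 to 4670 CPM (reads per 1000000 reads on genes, TMM-scaled) over the 12 samples, and none of them was without reads. Markers of other cells were lower but present. Ighm, an immunoglobulin gene of B cells, had a mean of 372 CPM. The 10 myeloid markers summed to 54.9 to 94.8 CPM, mostly Cst3 at 56.4 CPM, with Cd14 at 0 reads. The 8 erythroid markers summed to 245 to 452 CPM in isotype and to 154 to 202 CPM in CB, without overlap, with 173 to 219 CPM in anti-PD-L1 and 220 to 295 CPM in anti-Lag3 samples. The 6 NK cell markers summed to 21.4 to 34.8 CPM in isotype, 11.3 to 19.0 CPM in CB, 16.4 to 24.0 CPM in anti-PD-L1 and 20.0 to 33.5 CPM in anti-Lag3 samples. The NK sum was mostly Gzma, at a mean of 17.4 CPM. The 2 CD8 markers gave 40.9 to 45.3 CPM in isotype, 25.0 to 33.2 CPM in CB, 24.6 to 30.5 CPM in anti-PD-L1 and 29.2 to 46.4 CPM in anti-Lag3 samples. The CD8 sum was nearly all Cd8b1, at a mean of 34.0 CPM, with Cd8a at 0.735 CPM. Both sums thus follow mainly 1 gene. The 5 platelet markers stayed at 3.31 CPM or below, with Gp1bb at 0 reads. The CD4+ T cell markers themselves summed to 4483 to 4645 CPM in isotype and 4056 to 4137 CPM in CB. The CD4+ T cell sums of CB lay below those of the other 3 groups. The erythroid and CD8 sums were below isotype in anti-PD-L1 as well as in CB, and the myeloid sums overlapped between groups. The part of these sums in the values below was not tested.

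No member passed the test between any 2 groups. A gene was called where edgeR's quasi-likelihood test gave an adjusted p below 0.05 after the Benjamini-Hochberg correction over all 15138 genes with at least 30 reads in sum. In CB against isotype 0 of the 9 tested members were called, against 4.29% of all tested genes, and 4 of 9 had an unadjusted p below 0.05, against 14.9% of all genes. The 4 were Slc3a2, Slc7a1, Slc7a6 and Slc1a5, all with higher values in CB. Since the list was chosen with earlier results of these data known, such counts beside the shares of all genes are descriptions only. Of the 7 members with a mean of at least 30 reads per sample, 6 had a log2 fold change above 0, with a median of 0.41 and a range of -0.10 to 0.68. Of their 7 intervals, 4 lay above 0. Over the 10448 tested genes with such a mean, 50% had a log2 fold change above 0, with a median of 0. Of those genes, 19.3% had an unadjusted p below 0.05 by edgeR in either direction. Since the sorted cells are a bulk sample, a change in the share of cells that use a gene and a change in RNA per cell cannot be told apart.

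**Figure D1:**
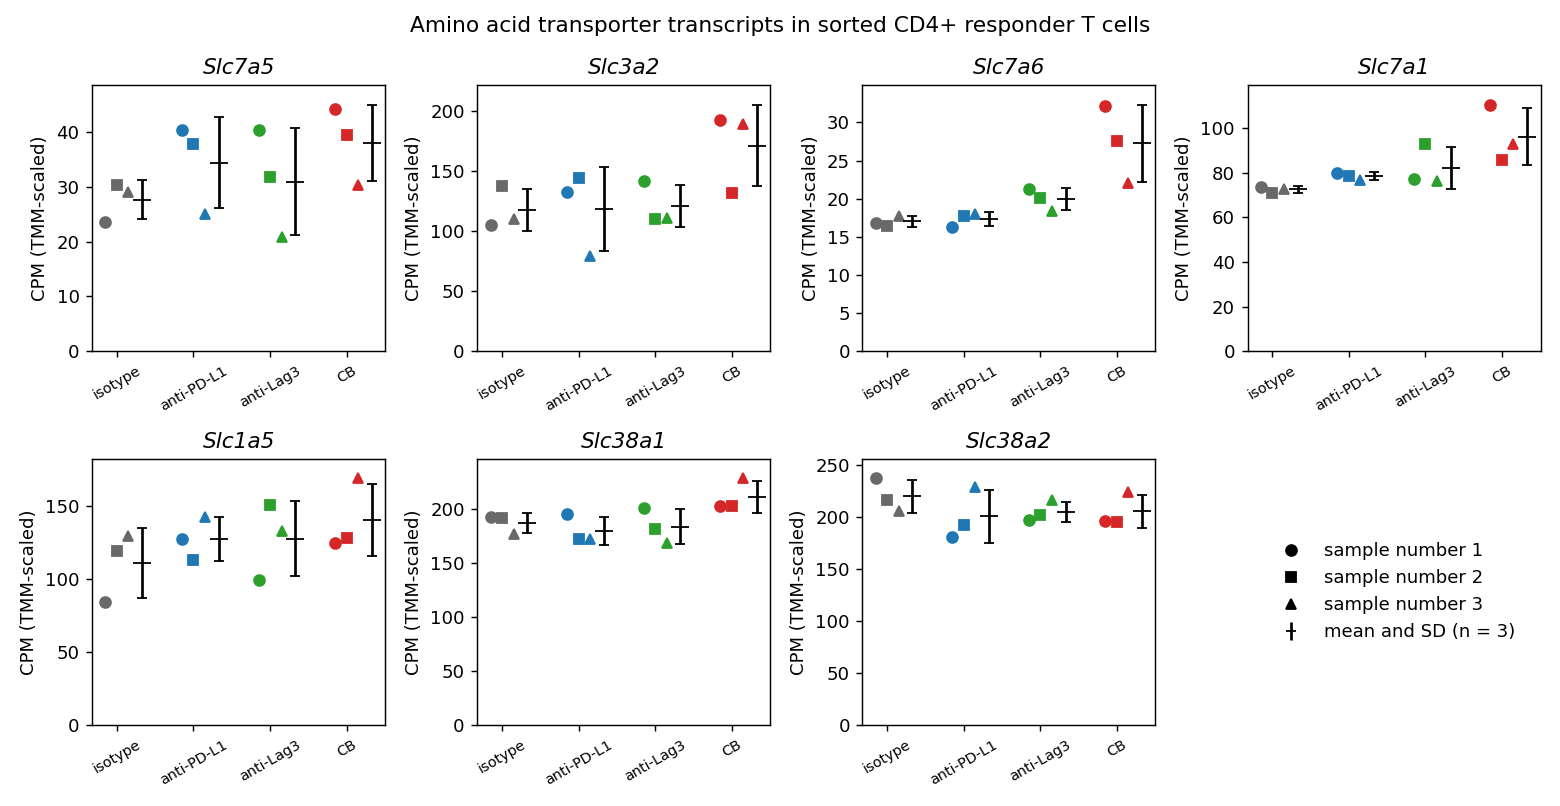
CPM (TMM-scaled, linear axis from 0) of the 7 well-counted members in each of the 12 samples, by group; symbols are sample numbers, the black bar is the mean and SD of 3 samples. All 3 CB samples lie above all 3 isotype samples for Slc7a5, Slc7a6, Slc7a1 and Slc38a1, while Slc38a2 has its highest mean in isotype.

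The CD98 heavy chain gene Slc3a2 (ENSMUSG00000010095, GRCm38 chr19:8706882-8723369, minus strand) had the smallest adjusted p of the members. It was measured at 105, 137 and 110 CPM in the isotype samples, at 132, 144 and 79.0 CPM with anti-PD-L1, at 141, 110 and 111 CPM with anti-Lag3 and at 192, 132 and 189 CPM in CB. Samples 1 and 3 of CB stood above all the other samples, and the remaining CB sample lay inside the isotype range, so the groups overlapped. The means were 117 ± 17.6, 118 ± 34.6, 121 ± 17.8 and 171 ± 34.0 CPM (SD, n = 3) in the same order of groups. The log2 fold change of CB over isotype was 0.54 (SE 0.18, 95% interval 0.18 to 0.91), with an edgeR adjusted p of 0.0873. Against the single antibodies it was 0.53 (SE 0.18, interval 0.17 to 0.90, adjusted p = 0.275) over anti-PD-L1 and 0.50 (SE 0.18, interval 0.14 to 0.87, adjusted p = 0.266) over anti-Lag3. Slc3a2 sits close to the threshold and its call depends on the setting. Without anti-PD-L1 replicate 3 the adjusted p of CB against isotype by edgeR was 0.0281, and without CB replicate 2 it was 0.0332 with a log2 fold change of 0.70. Fitted to the CB and isotype samples alone it was 0.0482, with no filter on low counts 0.00203, and with the replicate number as a block 0.0205. The single antibodies gave 0.01 (interval -0.35 to 0.38) and 0.04 (interval -0.32 to 0.41) over isotype on the log2 scale.

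Slc7a5, the leucine carrier of the pair (ENSMUSG00000040010, chr8:121881150-121907694, minus strand), varied widely inside each blocked group. Its values were 23.5, 30.3 and 29.1 CPM in isotype, 40.4, 37.9 and 25.0 CPM with anti-PD-L1, 40.3, 31.7 and 20.8 CPM with anti-Lag3 and 44.2, 39.5 and 30.4 CPM in CB. Sample number 3 was the lowest of each blocked group, though not of isotype. Over the groups the Slc7a5 means were 37.1, 34.9 and 26.3 CPM for sample numbers 1, 2 and 3. Those of Slc1a5 rose instead, at 109, 128 and 144 CPM. Whether the numbers are sort batches is not known. All 3 CB samples were above the 3 isotype samples, by a narrow margin between 30.3 and 30.4 CPM, and the other groups overlapped both. The isotype and CB means were 27.7 ± 3.62 and 38.0 ± 7.00 CPM (SD, n = 3). The log2 fold change of CB over isotype was 0.46 (SE 0.24, 95% interval -0.04 to 0.96, edgeR adjusted p = 0.384). Over anti-PD-L1 it was 0.14 (interval -0.36 to 0.64) and over anti-Lag3 0.30 (interval -0.20 to 0.80). Anti-PD-L1 gave 0.32 (interval -0.19 to 0.82) and anti-Lag3 0.16 (interval -0.34 to 0.66) over isotype. Each interval holds both 0 and a change of more than 0.6, so these samples do not place Slc7a5. Its locus overlaps Gm20388 on the opposite strand, a gene with 0 reads in the table.

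The 2 chains of the pair did not keep a fixed ratio of counts. Slc3a2 reads per Slc7a5 read were 3.76 to 4.53 in isotype, 3.16 to 3.80 with anti-PD-L1, 3.47 to 5.34 with anti-Lag3 and 3.34 to 6.22 in CB. The 4 ranges overlapped, and CB spanned nearly the whole of them. Over the 12 samples the genes whose log2 CPM pattern came closest to Slc7a5, by root mean square difference after centring among 10447 genes, were Snu13 (0.14), Carm1 (0.15) and Nol10 (0.16), with Slc3a2 at rank 432 (0.29). Closest to Slc3a2 were Lpcat1 (0.15), Mphosph6 (0.18) and Ddx27 (0.18), with Slc7a5 at rank 441. For scale, the log2 CPM of Slc7a5 and Slc3a2 had SDs of 0.35 and 0.36 over the 12 samples, not far above the 0.29 between them. These likenesses are descriptions over 12 samples that share libraries and depth.

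Slc7a6, another light chain of CD98, had the largest fold change of the well-counted members (ENSMUSG00000031904, chr8:106168857-106198706, plus strand). It was at 16.9, 16.4 and 17.8 CPM in isotype, 16.3, 17.8 and 18.0 CPM with anti-PD-L1, 21.3, 20.1 and 18.4 CPM with anti-Lag3 and 32.2, 27.6 and 22.0 CPM in CB. The isotype samples lay within 1.5 CPM of each other, and every CB sample was above every sample of the other 3 groups. The anti-Lag3 samples also stood above all isotype and anti-PD-L1 samples, so the groups were ordered with isotype and anti-PD-L1 overlapping at the bottom. The log2 fold change of CB was 0.68 over isotype (SE 0.25, 95% interval 0.17 to 1.19, edgeR adjusted p = 0.141), 0.65 over anti-PD-L1 (SE 0.25, interval 0.14 to 1.16, adjusted p = 0.374) and 0.45 over anti-Lag3 (SE 0.25, interval -0.06 to 0.95, adjusted p = 0.566). The means were 17.0 ± 0.708, 17.4 ± 0.906, 20.0 ± 1.44 and 27.3 ± 5.07 CPM (SD, n = 3). Slc7a6 had 259 to 614 reads per sample, fewer than any other of the 7.

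Slc7a1, which brings in arginine and lysine, followed a similar order (ENSMUSG00000041313, chr5:148327410-148399904, minus strand). The isotype samples were at 73.8, 71.1 and 72.6 CPM, anti-PD-L1 at 80.0, 78.7 and 76.6 CPM, anti-Lag3 at 77.0, 92.9 and 76.4 CPM and CB at 110, 85.5 and 92.7 CPM. All 9 samples with a blocking antibody were above all 3 isotype samples, and CB was also above anti-PD-L1 in every sample, but overlapped anti-Lag3. CB over isotype gave a log2 fold change of 0.41 (SE 0.14, 95% interval 0.13 to 0.69, edgeR adjusted p = 0.0978). Over anti-PD-L1 it was 0.29 (SE 0.14, interval 0.02 to 0.57, adjusted p = 0.521) and over anti-Lag3 0.23 (interval -0.05 to 0.51). Anti-PD-L1 and anti-Lag3 gave 0.11 (interval -0.17 to 0.39) and 0.18 (interval -0.10 to 0.46) over isotype. The isotype mean was 72.5 ± 1.36 CPM (SD, n = 3) and the CB mean 96.2 ± 12.9 CPM. The anti-PD-L1 mean was 78.4 ± 1.73 CPM and the anti-Lag3 mean 82.1 ± 9.36 CPM, so the spread was mostly within CB and anti-Lag3.

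**Figure D2:**
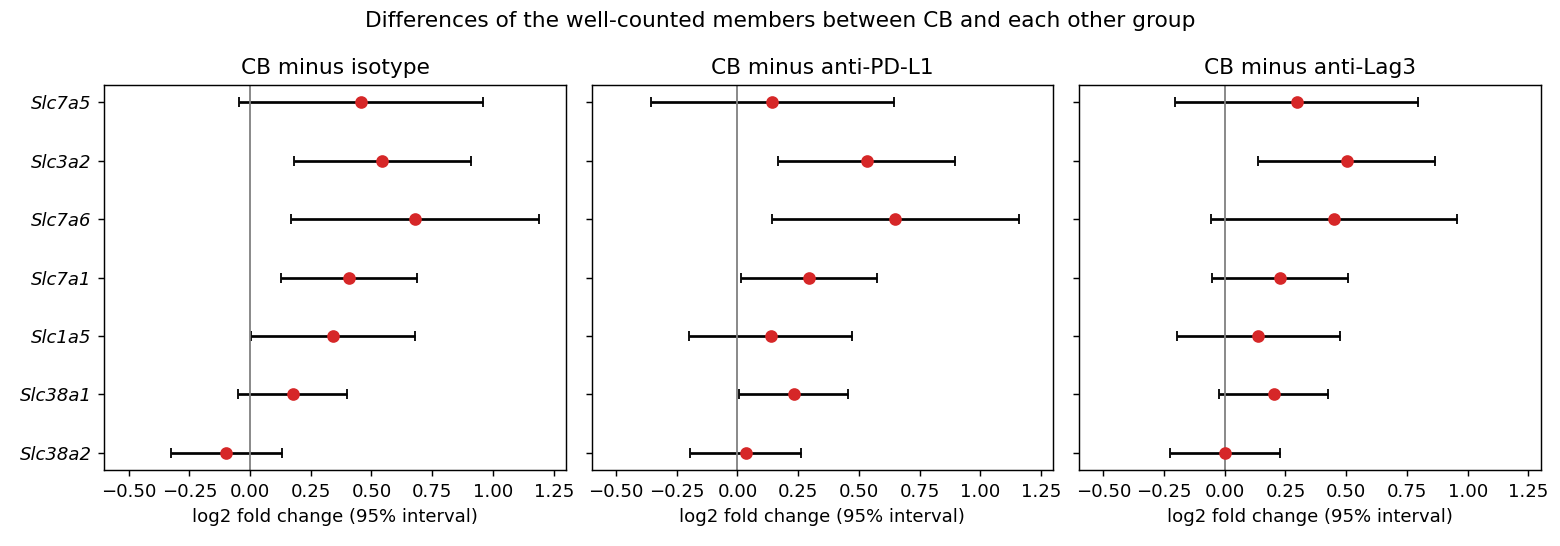
Log2 fold changes of CB over isotype, anti-PD-L1 and anti-Lag3 (points) with 95% intervals (bars) from the fit to all 12 samples, for the 7 well-counted members. Against isotype the intervals of Slc3a2, Slc7a6, Slc7a1 and Slc1a5 lie above 0 and those of Slc7a5, Slc38a1 and Slc38a2 cross it; no adjusted p is below 0.05.

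Slc1a5, a glutamine carrier (ENSMUSG00000001918, chr7:16781340-16798274, plus strand), overlapped between all groups. It was at 84.2, 119 and 130 CPM in isotype, 128, 113 and 143 CPM with anti-PD-L1, 99.8, 151 and 133 CPM with anti-Lag3 and 125, 128 and 169 CPM in CB. Isotype sample 1 was the lowest of the 12 and CB sample 3 the highest, and the means of these groups were 111 ± 23.9 and 141 ± 24.7 CPM (SD, n = 3). CB over isotype was 0.34 on the log2 scale (SE 0.16, 95% interval 0.01 to 0.68), with an unadjusted p of 0.0467 and an adjusted p of 0.327 from edgeR. Both single antibodies gave 0.20 over isotype, with intervals of -0.13 to 0.54. CB over either single antibody gave 0.14, with intervals of -0.20 to 0.47. Nearest to it in pattern were Sltm (0.12), Actr8 (0.14) and Snrpg (0.15).

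Slc38a1 and Slc38a2, the sodium-coupled neutral carriers, are neighbours on chromosome 15 of GRCm38, at chr15:96571418-96642913 (ENSMUSG00000023169) and chr15:96687392-96699730 (ENSMUSG00000022462), both on the minus strand. Slc38a1 was at 193, 192 and 177 CPM in isotype, 195, 172 and 173 CPM with anti-PD-L1, 201, 182 and 169 CPM with anti-Lag3 and 203, 203 and 229 CPM in CB. Every CB sample was above every other sample, and the other 3 groups overlapped. The difference was small, with a log2 fold change of CB of 0.18 over isotype (SE 0.11, 95% interval -0.05 to 0.40, edgeR adjusted p = 0.451), 0.23 over anti-PD-L1 (interval 0.01 to 0.46, adjusted p = 0.531) and 0.20 over anti-Lag3 (interval -0.02 to 0.43). Slc38a2 was at 237, 217 and 205 CPM in isotype, 180, 192 and 229 CPM with anti-PD-L1, 197, 202 and 216 CPM with anti-Lag3 and 196, 196 and 224 CPM in CB. Its groups overlapped throughout, and it was the member whose CB value was below isotype, with a log2 fold change of -0.10 (SE 0.11, interval -0.33 to 0.13, adjusted p = 0.781). Over the 5 comparisons with isotype or CB its intervals reached from -0.36 to 0.26. The isotype and CB means were 187 ± 9.28 and 211 ± 14.8 CPM for Slc38a1 and 220 ± 16.0 and 205 ± 16.0 CPM for Slc38a2 (SD, n = 3).

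For the groups given 1 antibody the members gave no low p-values against isotype or each other, and some against CB, mostly for anti-PD-L1. In anti-PD-L1 against isotype 0 of 9 members were called, against 0.033% of all tested genes, and 0 had an unadjusted p below 0.05, against 7.84% of all genes. In anti-Lag3 against isotype 0 were called, against 0% of all genes, and 0 had an unadjusted p below 0.05, against 5.21%. In anti-PD-L1 against anti-Lag3 0 were called, against 0%, and again 0 had an unadjusted p below 0.05, against 4.69%. Of CB against anti-PD-L1 0 were called, against 0.37% of genes, and 4 had an unadjusted p below 0.05, against 9.08% of genes, namely Slc3a2 (0.0059), Slc7a6 (0.0141), Slc7a1 (0.0395) and Slc38a1 (0.043), none of which holds after edgeR's adjustment. Of CB against anti-Lag3 0 were called, against 0.694%, and 1 had an unadjusted p below 0.05, against 9.46%, which was Slc3a2 (0.00886, edgeR). CB is shared by these comparisons, and isotype by the earlier ones, so they are not independent. A DESeq2 Wald test also called 0 members in each of the 6 comparisons of 2 groups and in the interaction.

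Whether the effect of both antibodies differed from the sum of the single effects was tested as an interaction. It was called for 0 of 9 members and for 0% of all tested genes, and 0 members had an unadjusted p below 0.05, against 5.93% of all genes. Over the 7 well-counted members the interaction had a median of 0.13 on the log2 scale and a range of -0.07 to 0.49. A test of any difference among the 4 groups called 0 members, against 2.15% of genes, and gave an unadjusted p below 0.05 for 3 of 9, against 11.3% of genes. These were Slc3a2 (0.00939), Slc7a6 (0.0326) and Slc7a1 (0.0374), from edgeR.

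All 3 CB samples exceeded all 3 isotype samples for Slc7a5, Slc7a1, Slc7a6 and Slc38a1, 4 of the 9 tested members, where this was so for 10.4% of all tested genes. Against anti-PD-L1 it held for Slc7a1, Slc7a6 and Slc38a1, where the share of all genes was 6.94%. Against anti-Lag3 it held for Slc7a6 and Slc38a1, where the share was 7.68%.

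The remaining 3 members were too low to judge. Slc1a4 (ENSMUSG00000020142, chr11:20302180-20332713, minus strand) had 273 reads over the 12 samples. It had 14, 22 and 0 reads in isotype, 0, 62 and 3 reads with anti-PD-L1, 29, 65 and 4 reads with anti-Lag3 and 8, 24 and 42 reads in CB. The 3 anti-PD-L1 samples alone ran from 0 to 62 reads. Slc43a1 (ENSMUSG00000027075, chr2:84838850-84863594, plus strand) had 346 reads, with 36, 15 and 0 in isotype, 47, 0 and 37 in anti-PD-L1 mice, 41, 19 and 42 in anti-Lag3 mice and 64, 10 and 35 in CB. Every group overlapped every other for both genes. Slc7a11 (ENSMUSG00000027737, chr3:49892526-50443614, minus strand), the gene with paired response element letters above, had 0 of 232047713 reads over all samples, which allows a level of up to 0.0129 CPM for counting error only. It was not detectable at this depth by reads at the 3′ end of transcripts, and was not tested.

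**Figure D3:**
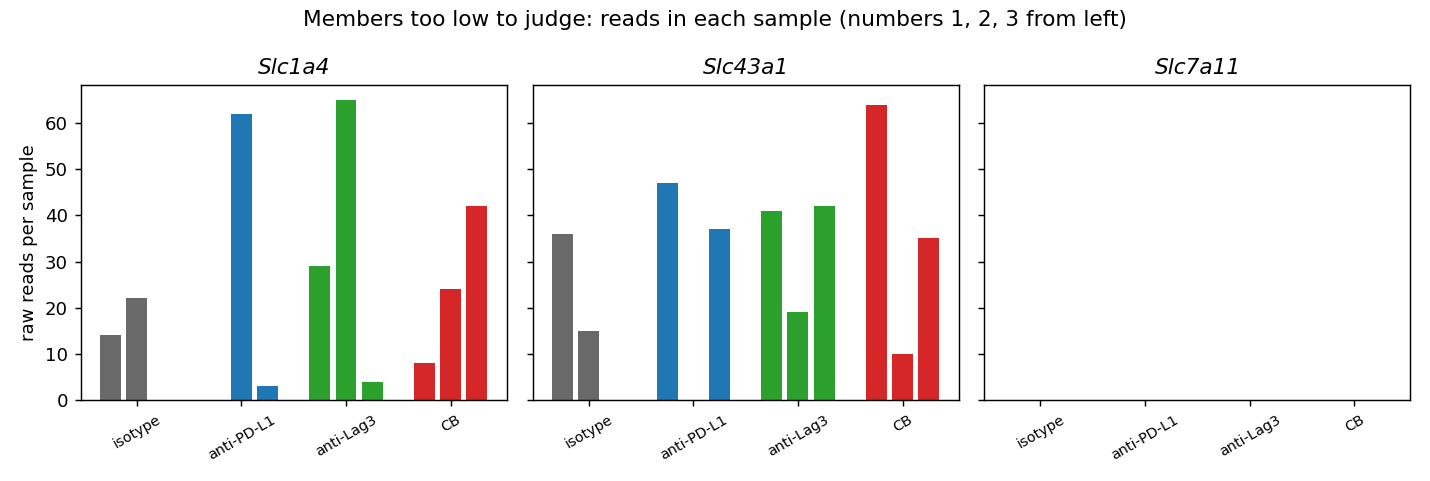
Raw reads on Slc1a4, Slc43a1 and Slc7a11 in each of the 12 samples (bars from 0, 3 samples per group, numbers 1 to 3 from left to right). Slc1a4 and Slc43a1 vary between 0 and 65 reads inside groups, and Slc7a11 has 0 reads in every sample.

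The wider amino acid programme was read from lists of genes in the same fit. In CB against isotype 0 of 10 tested genes of 34 other plasma membrane carriers were called, 0 of 9 of the 10 lysosomal carriers, 0 of 9 of the 11 mitochondrial carriers and 0 of 15 of 16 enzymes of amino acid breakdown, against the 4.29% given above. Among genes with a mean of at least 30 reads, the median log2 fold change was 0.38 over 3 other plasma membrane carriers (0.27 to 0.53) and -0.11 over 8 lysosomal carriers (-0.49 to -0.01). It was 0.08 over 8 mitochondrial carriers (-0.95 to 0.41) and -0.08 over 13 breakdown enzymes (-0.80 to 0.83), which went both ways. The median over all tested genes was 0.

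Of 29 genes that carry amino acid signals to mTORC1, 1 was called in CB against isotype, where 4.29% of all tested genes were, so the count is no result about the list, and the median log2 fold change of the 26 well-counted ones was -0.0046. Sesn1, a sestrin, a family known as leucine sensors that hold mTORC1 back, fell. It was at 25.2, 38.6 and 32.3 CPM in isotype, 21.3, 7.40 and 19.9 CPM with anti-PD-L1, 11.4, 13.3 and 24.9 CPM with anti-Lag3 and 5.29, 10.3 and 13.0 CPM in CB. All 3 isotype samples stood above the other 9, and both single-antibody groups overlapped CB. The log2 fold change was -1.75 (SE 0.38, edgeR adjusted p = 0.00576), and it stayed called when any 1 of the 12 samples was left out, at -2.04 to -1.46.

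Of the 22 tested genes of the ATF4 amino acid response, 3 rose in CB against isotype, where 4.29% of all tested genes, and 6.14% of those with a mean of at least 30 reads, were called in either direction. The 17 well-counted ones had a median log2 fold change of 0.14. Atf4 itself was at 161, 178 and 218 CPM in isotype, 230, 200 and 217 CPM with anti-PD-L1, 186, 167 and 203 CPM with anti-Lag3 and 256, 254 and 308 CPM in CB. All CB samples were above all the others, with a log2 fold change over isotype of 0.56 (SE 0.12, edgeR adjusted p = 0.00569) and over anti-Lag3 of 0.56 (adjusted p = 0.0221). Psat1, an enzyme of serine synthesis, had a mean of 199 ± 7.93 CPM in isotype and 265 ± 16.9 CPM in CB (SD, n = 3), and its log2 fold change was 0.41 (SE 0.10, adjusted p = 0.0175, edgeR). Shmt2, which makes one-carbon units from serine in mitochondria, had 138 ± 13.1 and 194 ± 36.2 CPM, with a log2 fold change of 0.49 (SE 0.14, adjusted p = 0.0395, edgeR). These 3 calls depended on single samples. By edgeR the adjusted p of Atf4 over isotype was 0.0549 without isotype replicate 1 and 0.0640 without CB replicate 3. Its adjusted p over anti-Lag3 was 0.0749 without anti-Lag3 replicate 1, 0.151 without anti-Lag3 replicate 2 and 0.196 without CB replicate 3. That of Psat1 was 0.0648 without isotype replicate 2, 0.0775 without isotype replicate 3 and 0.102 without CB replicate 1. That of Shmt2 was above the threshold without any 1 of isotype replicates 1, 2 and 3 (0.0516, 0.118 and 0.162), CB replicate 1 (0.294) or CB replicate 3 (0.0985), and 0.0508 in a fit to CB and isotype alone. No gene of these lists was called in the other comparisons except Atf4 in CB against anti-Lag3. Myc, known to drive several of these carriers, was at 14.7 ± 2.77 CPM in isotype and 15.7 ± 1.31 CPM in CB (SD, n = 3), a log2 fold change of 0.10 (SE 0.34, edgeR adjusted p = 0.971) that was -0.05 without isotype replicate 2.

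**Figure D4:**
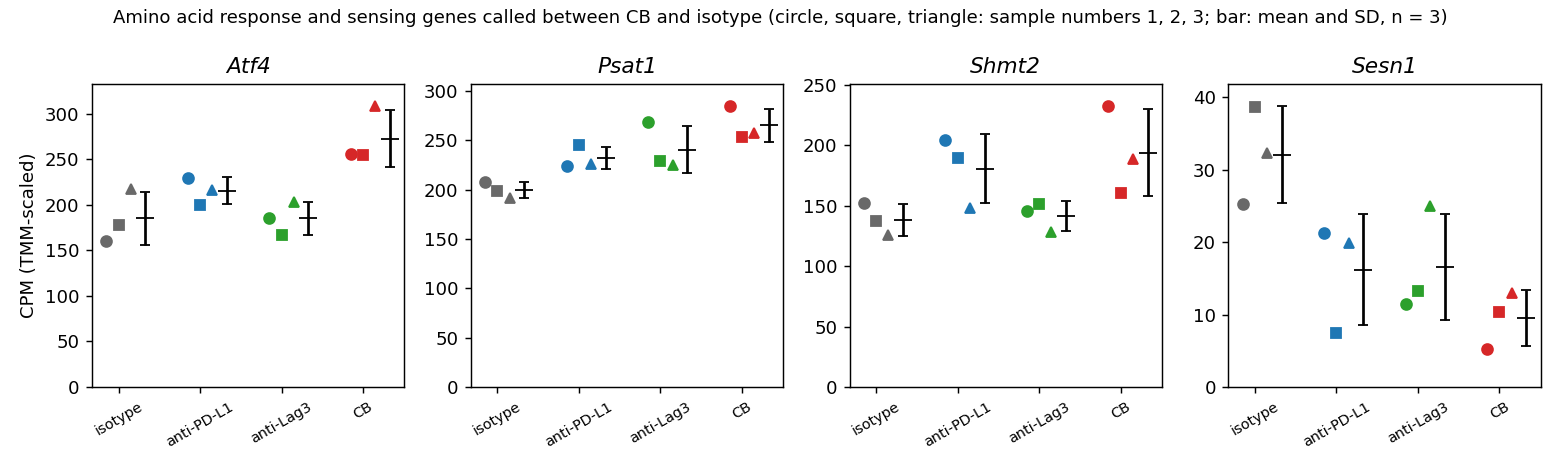
CPM (TMM-scaled, linear axes from 0) of Atf4, Psat1, Shmt2 and Sesn1 in each of the 12 samples by group, with the mean and SD of 3 samples in black. The 3 CB samples lie above the 3 isotype samples for Atf4, Psat1 and Shmt2 and below them for Sesn1.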

How the data were processed

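QuantSeq 3′ mRNA-seq libraries were made from 5 ng of RNA with 18 cycles of PCR and no molecular identifiers. According to the submitters' processing notes cutadapt 1.18, STAR 2.6.1a and featureCounts 1.6.4 were used, with the GRCm38 build. The strand setting and annotation release are not given in the sources used here. The authors deposited raw read counts per gene without normalization, for 56691 genes and 114 spike-in transcripts (0.719% to 1.29% of reads), which were left out of library sizes. Their rlog table was not used, and 0 columns of samples were left unused. Symbols and positions came from GENCODE M21 (GRCm38), which named 52073 genes and not 4618.

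The tests used R 4.3.3, with edgeR at version 4.0.16 and limma at 3.58.1. Genes with at least 30 reads over the 12 samples entered 1 fit of 4 group means, with TMM scaling and quasi-likelihood tests. CPM values are scaled by TMM. Log2 CPM for pattern likeness used a prior count of 2. DESeq2 1.42.0, other filters and scalings, a replicate block, fits to the groups compared alone and leaving out each sample were tried. Scripts were tested on simulated data.

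All 10 members are named. From each other list, genes called in CB against isotype are named, at most 6 per list, and Myc. Members with a mean below 30 reads per sample count as too low to judge. Members and lists were chosen with earlier results of these data known. Ddit3, with 2 identifiers, was not counted. The summed B cell markers are not reported here. Samples of a group came from separate mice, and none agreed within counting noise. The 95% intervals come from the quasi-likelihood fit and include the spread between samples of a group. The limit of 3 counts for an undetected gene covers counting error only.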

Additional observations from a re-analysis of the deposited data

How the results depend on the processing

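Of 35 log2 fold changes (7 well-counted members in 5 comparisons), 26 kept their direction and 32 their call under 19 alternatives, 12 of which left out 1 sample. The call that moved was that of Slc3a2. Members called higher in CB against isotype went from 0 to 1 with no filter on low counts (adjusted p = 0.00203), with the replicate block (0.0205) and with only the groups compared (0.0482), and ranged from 0 to 1 when 1 sample was left out. With no filter 1 member was also called in CB against anti-PD-L1 (0.0143), in CB against anti-Lag3 (0.0198) and for any difference (0.0011). The cause was not tested. Apart from the test of any difference with the replicate block, given next, all other counts of members called stayed at 0, from 0 to 0 over the left-out samples. The interaction could not be fitted with fewer groups, and the test of any difference was not run by DESeq2.

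The groups share replicate numbers 1 to 3, and each sort batch held 1 mouse of each group, but the sources do not say which number belongs to which batch. Deviations from the group means of same-numbered samples correlated at -0.06 to 0.12 (18 pairs) and those of other pairs at -0.13 to 0.07 (36 pairs), over 10448 genes, and 8 of 12 samples correlated best, on average, with their own number. The numbers were not taken as pairs in the main fit, since these ranges overlap and the batch of each number is not known. The paper reads the second axis of its principal component analysis largely as an effect of sort batches. The main fit may thus hold batch spread within its groups. With the replicate block 1 member, Slc3a2, was called for any difference (0.0277), and all genes called for it went from 326 to 550.

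Where no single sample was left out, reversed values were near 0. Slc3a2 in anti-PD-L1 against isotype was -0.00775 with the replicate block. Slc38a2 in CB against anti-Lag3 was -0.00479 with DESeq2 by either test, -0.00485 with DESeq2 size factors, -0.000183 with the replicate block and -0.00431 with only the groups compared. With 1 sample left out, Slc3a2 ranged from -0.15 to 0.24 in anti-PD-L1 and from -0.0852 to 0.17 in anti-Lag3 against isotype, and in the latter Slc7a5 ranged from -0.0745 to 0.38 and Slc38a1 from -0.10 to 0.0316. Against anti-PD-L1, CB ranged from -0.0432 to 0.28 for Slc7a5, -0.0163 to 0.23 for Slc1a5 and -0.0366 to 0.14 for Slc38a2. Against anti-Lag3 it ranged from -0.0167 to 0.28 for Slc1a5 and -0.0655 to 0.0400 for Slc38a2. Myc in CB against isotype ranged from -0.0454 to 0.18.

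Over all genes, CB against isotype called 353 higher and 296 lower, 126 and 107 with a DESeq2 test against a log2 fold change of 0.2, and 214 to 385 and 170 to 328 with 1 sample left out. That DESeq2 test called 0 genes of the ATF4 list, which had 1 to 3 called with 1 sample left out, and Sesn1 was joined by 1 more mTORC1 gene (2 in all) without CB replicate 2.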
